A study of Rattus norvegicus with 9 samples.

Results

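The 10 genes described here mark macrophages or act on them: Csf1r, Csf1, Mrc1, Cd163, Clec4a3, Tyrobp, Cd68, Gpnmb, Aif1 and Coro1a. They were chosen by gene symbol, with earlier results of these data known. Only probe sets annotated to exactly 1 gene were read, which gave 14 probe sets of 20826 and 10 genes of 14217. Their RNA was measured in whole kidneys of Sprague-Dawley rats, bought at 8 weeks of age, kept for 1 week and then injected into the peritoneum daily for 7 days. The rats received the saline vehicle (vehicle), 25 mg/kg colistin methanesulfonate sodium (CMS25) or 50 mg/kg of it (CMS50), and 3 rats per dose were picked at random for 1 array each. The sex is not given in the labels. Colistin methanesulfonate sodium is the prodrug of colistin, a polymyxin antibiotic known to injure renal tubules. The labels record no lesion for vehicle, basophilic and dilated tubules for CMS25, and necrotic cells, degenerating tubules and casts for CMS50. Right kidneys were used whole, so blood, vessels and any resident leukocytes contributed RNA.

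Macrophages are phagocytes that live in the kidney interstitium from before birth and are joined by blood monocytes after injury. Their survival depends on the receptor Csf1r, which binds the growth factors Csf1 and Il34, and their identity on the transcription factor PU.1. They take up debris through scavenger receptors and lectins, digest it in lysosomes, and signal through adaptor proteins such as Tyrobp. In bulk tissue, more cells of a type and more RNA per cell cannot be told apart.

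Promoters of 4 of the genes are shown because these genes rose together in CMS50 kidneys and because the windows hold letters read by factors known from macrophages. The windows are RefSeq sequence of rat assembly GRCr8, from 250 bases before to 50 after the gene start, written 5′ to 3′ on the strand of the gene. They lie at chr18:56834129-56834428 for Csf1r (plus strand), chr17:82157475-82157774 for Mrc1 (plus strand), chr10:54882392-54882691 for Cd68 (minus strand) and chr4:79340878-79341177 for Gpnmb (plus strand). Capitals mark matches on either strand to GAGGAA, the core of PU.1 sites, to TCANGTG, the box read by MITF and TFE3, and to TGANTCA, the AP-1 site.
Csf1r: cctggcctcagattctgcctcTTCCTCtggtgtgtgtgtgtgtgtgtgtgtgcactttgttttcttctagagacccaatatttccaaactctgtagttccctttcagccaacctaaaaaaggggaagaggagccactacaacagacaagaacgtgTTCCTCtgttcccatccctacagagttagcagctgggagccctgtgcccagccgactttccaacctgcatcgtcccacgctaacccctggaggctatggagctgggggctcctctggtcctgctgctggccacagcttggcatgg
Mrc1: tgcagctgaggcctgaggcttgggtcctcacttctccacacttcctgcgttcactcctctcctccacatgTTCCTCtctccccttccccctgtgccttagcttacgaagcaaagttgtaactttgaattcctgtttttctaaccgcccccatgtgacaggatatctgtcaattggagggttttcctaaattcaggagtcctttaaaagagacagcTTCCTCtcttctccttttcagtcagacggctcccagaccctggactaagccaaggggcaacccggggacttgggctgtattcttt
Cd68: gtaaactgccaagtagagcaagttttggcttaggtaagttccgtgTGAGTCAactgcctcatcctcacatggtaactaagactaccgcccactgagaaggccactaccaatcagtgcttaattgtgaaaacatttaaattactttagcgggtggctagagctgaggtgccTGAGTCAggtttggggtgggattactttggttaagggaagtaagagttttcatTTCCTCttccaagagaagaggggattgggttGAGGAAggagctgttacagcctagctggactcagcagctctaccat
Gpnmb: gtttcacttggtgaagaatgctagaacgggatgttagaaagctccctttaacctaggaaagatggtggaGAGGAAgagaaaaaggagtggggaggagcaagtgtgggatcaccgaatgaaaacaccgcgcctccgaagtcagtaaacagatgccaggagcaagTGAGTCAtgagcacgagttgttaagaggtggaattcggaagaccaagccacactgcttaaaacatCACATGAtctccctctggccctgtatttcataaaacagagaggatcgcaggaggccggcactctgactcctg

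Windows were found for 7 of the 10 genes, and those of Csf1, Aif1 and Tyrobp were not analysed here. GAGGAA or its complement was in 5 of the 7, those of Cd68, Clec4a3, Csf1r, Gpnmb and Mrc1, while 27.6% of 33469 windows of all genes hold it. TCANGTG was in the Gpnmb window alone among the 7, at bases 229 to 235 counted from the 5′ end of the window, against 13.4% of all windows. TGANTCA was in the windows of Cd68, at bases 46 to 52 and 171 to 177, and of Gpnmb, at bases 164 to 170, against 7.33% of all windows. No marked match overlapped a match to another motif. A match describes the letters only and was not set against any binding measurement.

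The values are log2 signals of the array, so a difference of 1 is a doubling, and the levels of different probe sets cannot be compared. A gene was tested where the mean of its brightest probe set over the 9 arrays was at least 5, which kept 10337 genes and 9 of the 10 described here. Cd163 fell below that minimum. Mrc1 and Gpnmb passed it only through their CMS50 arrays, since their vehicle and CMS25 means were below 5, so both had to differ to be tested and their folds are approximate. Changes are given with their standard error (SE), and p-values are those of limma with Benjamini-Hochberg adjustment over all genes tested, with a gene called at an adjusted p under 0.05. Of a list of genes, the measured ones are those past the minimum. The lists, like the 10 genes, were chosen with earlier results of these data known. Their counts and medians beside those of all genes are therefore a description and no test.

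In CMS50 kidneys, 8 of the 10 genes were called higher than in vehicle kidneys, namely Gpnmb, Mrc1, Clec4a3, Csf1r, Coro1a, Cd68, Aif1 and Tyrobp. The growth factor gene Csf1 did not follow them, and Cd163 was too dim to be tested with the rest. Of all genes tested, 31.1% were called in this comparison, 19.6% higher and 11.4% lower in CMS50. For each of the 8 genes all 3 CMS50 arrays lay above all 3 vehicle arrays, as they did for 30.6% of genes tested, and for Csf1 they lay below, as for 19.1%. Without Mrc1 and Gpnmb, 6 of the 7 other tested genes were called higher and 0 lower. The median change was 1.29 over the 9 tested genes and 1.23 over these 7, against 0.052 for all genes tested. In CMS25 kidneys 0 of the 10 genes were called against vehicle, as were 0% of all genes, while 604 genes (5.84%) had an unadjusted p under 0.05. None of the 9 tested genes was among these 604. In the brightest probe set of each of the 10, the CMS25 arrays overlapped the vehicle arrays. Of genes tested, 4.45% had CMS25 arrays all above vehicle and 7.65% all below. The 9 changes at CMS25 ran from -0.29 for Mrc1 to 0.20 for Csf1. Of the dimmer Csf1 probe sets, 1369354_at and 1380583_s_at had all CMS25 arrays above vehicle. Their changes were 0.23 and 0.29, and neither was called. Between the doses, 8 genes were called higher in CMS50 than in CMS25 and Csf1 was called lower, against 20.8% and 9.43% of all genes (30.3% in either direction). The arrays of the doses did not overlap for any of these 9 genes, as for 30.4% of genes tested that lay above and 15.3% that lay below in CMS50. Leaving out Mrc1 and Gpnmb, 6 of the 7 other tested genes were called higher in CMS50 than in CMS25 and 1 lower. Their median change was 1.38, against 0.074 for all genes tested. Both CMS50 comparisons share the CMS50 arrays.

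**Figure D1:**
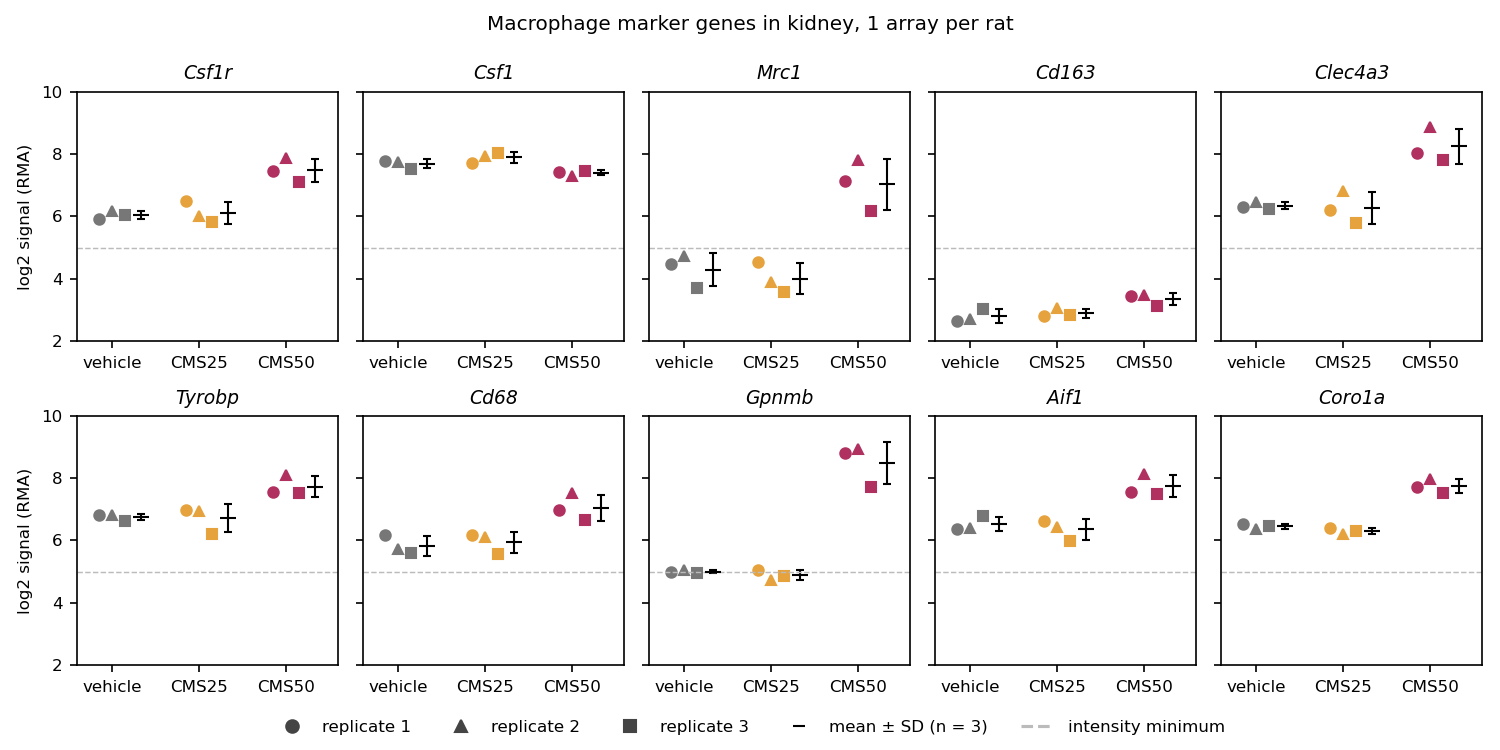
Log2 signal (y axis) of the 10 genes on each array by dose (x axis), with the mean ± SD of 3 arrays as a bar and the intensity minimum of 5 as a dashed line. The CMS50 arrays lie above all other arrays in every panel except that of Csf1, where they lie below.

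The receptor of the CSF1 axis was higher and its classical ligand was not. Csf1r (probe set 1388784_at), the tyrosine kinase receptor on which macrophages depend, had 5.91, 6.19 and 6.05 in vehicle kidneys, 6.49, 6.01 and 5.81 in CMS25 kidneys and 7.46, 7.87 and 7.12 in CMS50 kidneys. All 3 CMS50 arrays were above the other 6, and CMS25 overlapped vehicle. The rise was 2.70-fold at CMS50 against vehicle (log2 change 1.43, SE 0.21, adjusted p = 0.00296) and 2.60-fold against CMS25 (1.38, SE 0.21, adjusted p = 0.00317).

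Csf1, the growth factor that Csf1r binds, had 4 probe sets, and the brightest (1380582_at) read 7.79, 7.76 and 7.54 in vehicle, 7.71, 7.95 and 8.04 in CMS25 and 7.44, 7.32 and 7.48 in CMS50. CMS50 was the lowest group and CMS25 overlapped vehicle. Against CMS25, CMS50 fell by 0.49 on the log2 scale (SE 0.11, adjusted p = 0.0127), a call lost without CMS50 replicate 2 (change -0.44, adjusted p = 0.0523). The difference of CMS50 from vehicle missed the threshold (-0.29, SE 0.11, 95% interval -0.54 to -0.03, adjusted p = 0.0810). Against vehicle, the changes of the other 3 probe sets in CMS50 were near 0 or above it. Their changes in CMS50 against vehicle were 0.0053 (1369354_at), -0.0080 (1379631_at) and 0.14 (1380583_s_at), and none was called, against 29.2% of all probe sets tested one by one. Against CMS25 they changed by -0.22 (adjusted p = 0.141), 0.014 (adjusted p = 0.935) and -0.14 (adjusted p = 0.348). For 1369354_at, all CMS50 arrays lay below those of CMS25. Averaged over the 4 probe sets, Csf1 changed by -0.21 between CMS50 and CMS25 (adjusted p = 0.0594) and by -0.036 between CMS50 and vehicle (adjusted p = 0.742). The size of the Csf1 difference, and whether it was called, thus depended on the probe set read.

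Il34, which encodes the other ligand of Csf1r and is made by tubule cells, averaged 7.61 in vehicle, 7.77 in CMS25 and 8.83 in CMS50, a rise of 1.21 at CMS50 against vehicle (SE 0.16, adjusted p = 0.00223). The alpha chain of the GM-CSF receptor, Csf2ra, missed the threshold (0.49, SE 0.18, adjusted p = 0.0709). Of 9 genes listed for this axis and for myeloid transcription factors, 6 were measured, 3 rose in CMS50 against vehicle and 0 fell, with a median of 0.86. Of all genes tested, 19.6% rose and 11.4% fell in this comparison, with a median of 0.052. The same shares stand beside the lists below. PU.1 (Spi1) was not analysed here.

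**Figure D2:**
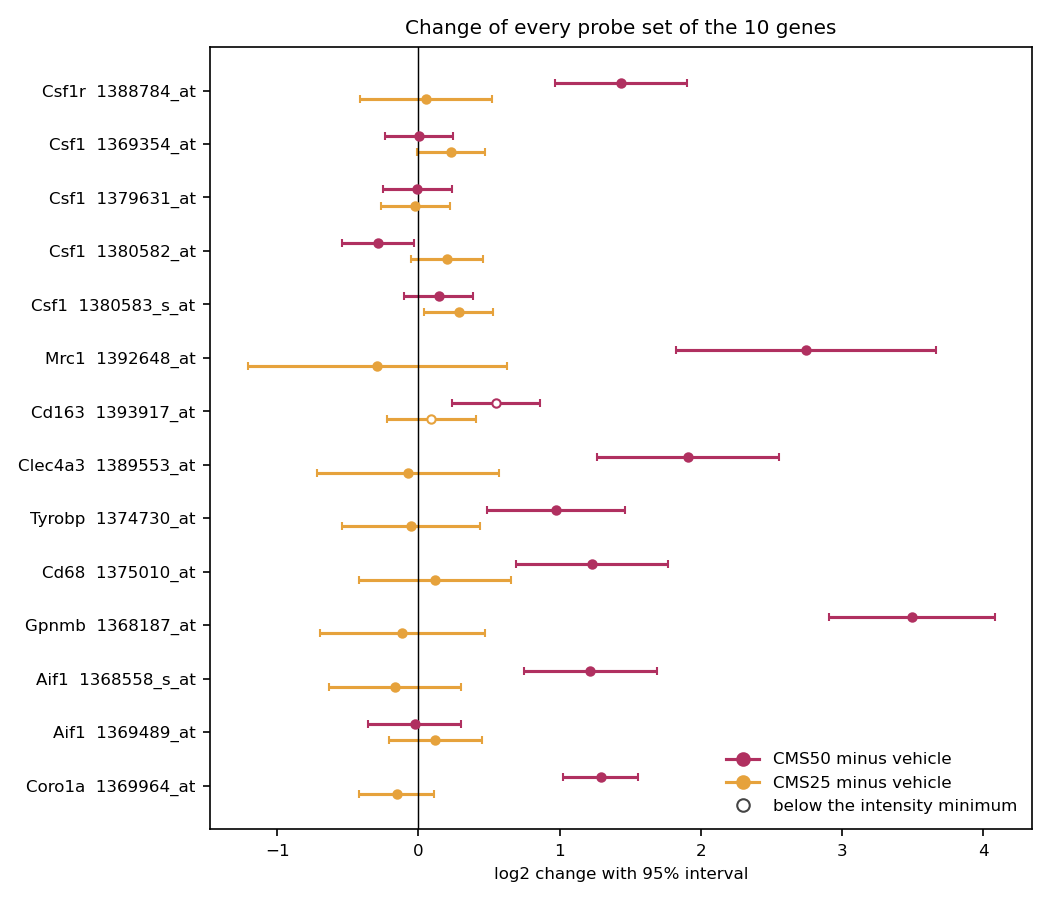
Log2 change (x axis) of each of the 14 probe sets (y axis) with its 95% interval, for CMS50 minus vehicle and CMS25 minus vehicle. Open points mark the Cd163 probe set, below the intensity minimum, and the CMS25 intervals reach 0 for all probe sets except 1380583_s_at of Csf1.

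Of the receptors that bind sugars and debris, Mrc1 and Clec4a3 were called higher at CMS50 and Cd163 was too dim for a firm call. Mrc1 (1392648_at), the mannose receptor of tissue macrophages, had 4.46, 4.72 and 3.69 in vehicle, 4.54, 3.90 and 3.56 in CMS25 and 7.13, 7.81 and 6.16 in CMS50. The lowest CMS50 array was more than 1 log2 unit above the highest of the other 6. Mrc1 was about 6.70-fold higher in CMS50 than in vehicle (log2 change 2.74, SE 0.43, adjusted p = 0.00327) and 8.19-fold higher than in CMS25 (3.03, SE 0.43, adjusted p = 0.00249). Its SD within groups, 0.83 in CMS50 and 0.54 in vehicle, was the widest of the 10 genes in both.

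Cd163 (1393917_at), the scavenger receptor for haemoglobin bound to haptoglobin, was dim throughout, at 2.63, 2.71 and 3.04 in vehicle, 2.79, 3.04 and 2.83 in CMS25 and 3.44, 3.47 and 3.12 in CMS50. The CMS50 arrays were again the highest, by as little as 0.079 log2 units. Fitted with no intensity minimum, over 14217 genes, its change in CMS50 against vehicle was 0.55 (SE 0.14, adjusted p = 0.0220). The adjusted p lay between 0.00905 and 0.0822 under the alternatives. The call was lost without CMS50 replicate 1 or 2 and without vehicle replicate 1 or 2 (changes of 0.50, 0.49, 0.47 and 0.51). Against CMS25 the change was 0.46 (adjusted p = 0.0437), a call lost in 7 alternatives with adjusted p up to 0.144.

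Clec4a3 (1389553_at), a C-type lectin of myeloid cells, had 6.31, 6.47 and 6.25 in vehicle, 6.20, 6.81 and 5.79 in CMS25 and 8.05, 8.87 and 7.82 in CMS50. The groups did not overlap at CMS50, while the CMS25 arrays spread to both sides of vehicle. It was 3.75-fold higher in CMS50 than in vehicle (log2 change 1.91, SE 0.30, adjusted p = 0.00327) and 3.95-fold higher than in CMS25 (1.98, SE 0.30, adjusted p = 0.00292). Clec4a3 belongs to a cluster of closely related lectin genes, so the share of each in this signal is uncertain. The related Clec4a1 lay below the intensity minimum, with a mean of 5.52 in CMS50 and 4.75 in vehicle, and Clec4a2, Mrc2 and the scavenger receptor Msr1 were not analysed here. Of 18 listed scavenger receptors and lectins, 9 were measured, 6 rose in CMS50 against vehicle and 0 fell, with a median of 1.49. One of the 6, Stab1, passed the minimum only through CMS50, and without it 5 of 8 rose, with a median of 1.27. The 3 not called were Cd36 (-0.56), Mertk (-0.19) and Lyve1 (0.60), named like Stab1 after their values were seen. Cd14, the co-receptor for bacterial lipopolysaccharide, rose by 1.49 (SE 0.18, adjusted p = 0.00176).

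The adaptor Tyrobp (1374730_at), also called DAP12, carries the signal of activating receptors such as Trem2 to the kinase Syk. It had 6.81, 6.83 and 6.64 in vehicle, 6.98, 6.95 and 6.19 in CMS25 and 7.56, 8.11 and 7.53 in CMS50. CMS50 lay above both other groups, and CMS25 replicate 3 was the lowest array of the 9. The rise was 1.96-fold against vehicle (log2 change 0.97, SE 0.22, adjusted p = 0.0126) and 2.03-fold against CMS25 (1.02, SE 0.22, adjusted p = 0.0108), the smallest of the 8 called rises in both comparisons.

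Related adaptors were higher too. Fcer1g, the common chain of activating Fc receptors, rose by 1.05 in CMS50 against vehicle (SE 0.17, adjusted p = 0.00387). Hcst (DAP10) rose by 0.58 (SE 0.14, adjusted p = 0.0130). Syk was not called (0.086, 95% interval -0.16 to 0.33, adjusted p = 0.584). Trem2 was below the intensity minimum, with means of 4.68 in vehicle, 4.77 in CMS25 and 5.36 in CMS50. Of 11 listed partners and signalling genes, 4 were measured, 2 rose and 0 fell, with a median of 0.44.

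Both genes of the lysosome and of phagocytosis were higher. Cd68 (1375010_at), a heavily glycosylated protein of macrophage lysosomes, had 6.17, 5.72 and 5.58 in vehicle, 6.16, 6.10 and 5.56 in CMS25 and 6.97, 7.51 and 6.67 in CMS50. The groups did not overlap at CMS50, where it was 2.34-fold higher than in vehicle (log2 change 1.23, SE 0.25, adjusted p = 0.00747). Against CMS25 it was 2.16-fold higher (1.11, SE 0.25, adjusted p = 0.0113).

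Gpnmb (1368187_at), a membrane glycoprotein of lipid-laden and phagocytic macrophages that is known as a target of MITF, changed most. It had 4.99, 5.04 and 4.94 in vehicle, 5.05, 4.74 and 4.84 in CMS25 and 8.80, 8.94 and 7.72 in CMS50. Vehicle and CMS25 arrays lay within 0.31 log2 units of each other, and every CMS50 array was far above them. Gpnmb was about 11.3-fold higher in CMS50 than in vehicle (log2 change 3.49, SE 0.27, adjusted p = 0.000447) and about 12.2-fold higher in CMS50 than in CMS25 (log2 change 3.61, SE 0.27, adjusted p = 0.000397). Of 9 listed genes of phagocyte lysosomes and lipid handling, 8 were measured, 6 rose in CMS50 against vehicle and 1 fell, with a median of 0.69. The one that fell was Lpl, lipoprotein lipase (-0.86, SE 0.23, adjusted p = 0.0205), named after its value was seen.

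The 2 genes of the actin cytoskeleton also rose. Aif1 (1368558_s_at), the calcium-binding protein known as Iba1, had 6.38, 6.42 and 6.77 in vehicle, 6.64, 6.45 and 5.99 in CMS25 and 7.57, 8.15 and 7.50 in CMS50. CMS50 was above the other groups, with a change of 1.22 against vehicle (SE 0.21, adjusted p = 0.00485) and of 1.38 against CMS25 (SE 0.21, adjusted p = 0.00318). Its second probe set, 1369489_at, averaged 5.12 in vehicle, 5.24 in CMS25 and 5.10 in CMS50 and was not called (CMS50 minus vehicle -0.026, 95% interval -0.35 to 0.30, adjusted p = 0.912). Averaged over both, Aif1 changed by 0.60 (adjusted p = 0.00732). Aif1l, a paralogue with high signal in these kidneys, was not called (-0.41, SE 0.19, adjusted p = 0.133). Of 5 listed relatives of these genes that other cells make, 3 were measured and 2 rose, both of them coronins.

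Coro1a (1369964_at), the coronin of blood cells, which lymphocytes also carry, had 6.52, 6.37 and 6.46 in vehicle, 6.39, 6.21 and 6.29 in CMS25 and 7.72, 7.97 and 7.53 in CMS50. The spread within groups was the narrowest of the 8 rises at CMS50. It was 2.45-fold higher in CMS50 than in vehicle (log2 change 1.29, SE 0.12, adjusted p = 0.000684) and 2.72-fold higher than in CMS25 (1.45, SE 0.12, adjusted p = 0.000488). The coronins of other cells were also higher in CMS50 than in vehicle, Coro1b by 0.57 (SE 0.11, adjusted p = 0.00703) and Coro1c by 1.09 (SE 0.18, adjusted p = 0.00388). Of 10 listed actin regulators of blood cells, 8 were measured, 7 rose and 0 fell, with a median of 0.69. The actin bundler Lcp1 rose by 1.16 (SE 0.20, adjusted p = 0.00416) and the GTPase Rac2 by 0.75 (SE 0.12, adjusted p = 0.00325).

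In the brightest probe set of each gene, the order of the CMS50 arrays was the same for 9 of the 10 genes. Replicate 2 was highest, replicate 1 followed and replicate 3 was lowest. Csf1 had the opposite order. Its probe set 1379631_at had the order of the 9 genes, and 1369354_at, 1380583_s_at and the second Aif1 probe set had other orders. The share of all genes with the order of the 9 was not counted. After each gene's mean over the arrays was subtracted, the 9 tested genes averaged 1.03, 1.46 and 0.68 on CMS50 replicates 1, 2 and 3. The CMS25 arrays averaged -0.36, -0.48 and -0.82, and the vehicle arrays -0.45, -0.44 and -0.61, so CMS25 replicate 3 was the lowest array and CMS25 spanned the whole vehicle range. In CMS25, 6 genes were lowest on replicate 3 and 7 were highest on replicate 1. Without CMS50 replicate 3 the changes against vehicle were larger for each of the 8 called genes, at 3.88 for Gpnmb, 3.18 for Mrc1 and 1.07 for Tyrobp. Without CMS50 replicate 2 they were smaller for each of the 8, at 3.27 for Gpnmb, 2.36 for Mrc1 and 0.79 for Tyrobp (adjusted p = 0.0460), and all 8 kept their call.

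**Figure D3:**
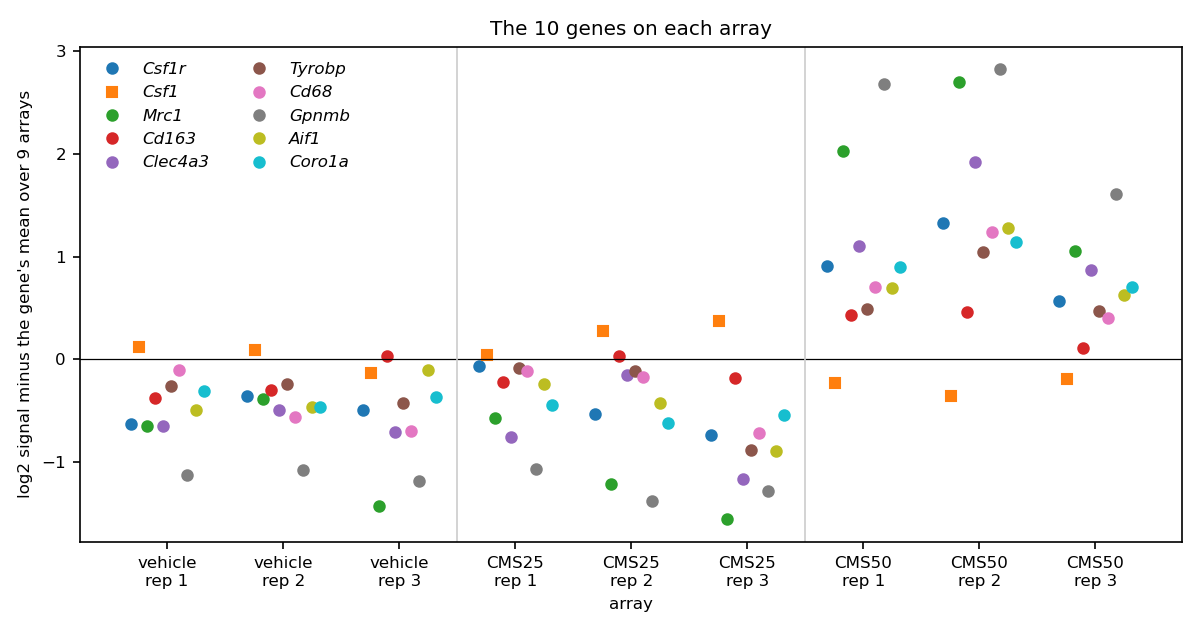
Log2 signal of each gene minus its mean over the 9 arrays (y axis), by array (x axis). All genes except Csf1 (squares) are highest on CMS50 replicate 2 and lie above 0 on all 3 CMS50 arrays.

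Over the 9 arrays, each of the 8 called genes followed the mean of the other tested genes with Pearson's r from 0.949 for Tyrobp to 0.981 for Csf1r, and Csf1 ran against it at -0.852. With group means removed, r was 0.689 for Aif1, 0.865 for Mrc1 and for Cd68, and -0.531 for Csf1. These values describe 9 arrays that share the dose and the scaling. The r over the 9 arrays follows largely from the rise in CMS50 by which the 8 genes were called. It is therefore a description and no further support. Mrc1 and Gpnmb, which changed most and so weigh heavily in the means, passed the minimum only through CMS50. The share of all genes with such r was not counted. Outside the 10 genes, the 5 whose values over the 9 arrays followed their mean most closely were Lrrc8a, Stard3, Rgs10, Prkci and Cdk4, with r from 0.993 to 0.997. Rgs10 changed by 1.39 in CMS50 against vehicle and Lrrc8a by 0.47. With group means removed, the closest were Adgrl4, Ms4a6bl1 and Lrrc8a, with r from 0.982 to 0.986. Both sets hold the highest r among all tested genes outside the 10. They were picked by that r over 9 arrays, so the values are no test of a link. Ms4a6bl1 changed by 2.12 in CMS50 against vehicle (SE 0.30, adjusted p = 0.00251), and Adgrl4 was not called (0.32, SE 0.22, adjusted p = 0.288).

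Other macrophage genes and genes of all leukocytes gave a like picture with exceptions. Of 17 other macrophage and myeloid genes, 11 were measured, 9 rose in CMS50 against vehicle and 0 fell, with a median of 1.29. Without Tlr2, which passed the minimum only through CMS50, 8 of 10 rose. Not called were Cx3cr1 (0.15, adjusted p = 0.309) and Fcgr3a (0.21, adjusted p = 0.477), named after their values were seen. Lyz2 (lysozyme) rose by 1.60 (SE 0.21, adjusted p = 0.00221) and Adgre1, an adhesion receptor of macrophages, by 1.09 (SE 0.24, adjusted p = 0.0108). Itgam (CD11b) was below the intensity minimum, with means of 3.67 in CMS50 and 3.34 in vehicle. Of 7 pan-leukocyte genes, 5 were measured, 3 rose and 0 fell, with a median of 1.02. The phosphatase Ptprc (CD45) rose by 1.21 (SE 0.23, adjusted p = 0.00610) and the lysosomal protein Laptm5 by 1.02 (SE 0.17, adjusted p = 0.00387). Itgb2, the beta chain of leukocyte integrins, was not called (0.14, 95% interval -0.21 to 0.48, adjusted p = 0.531).

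**Figure D4:**
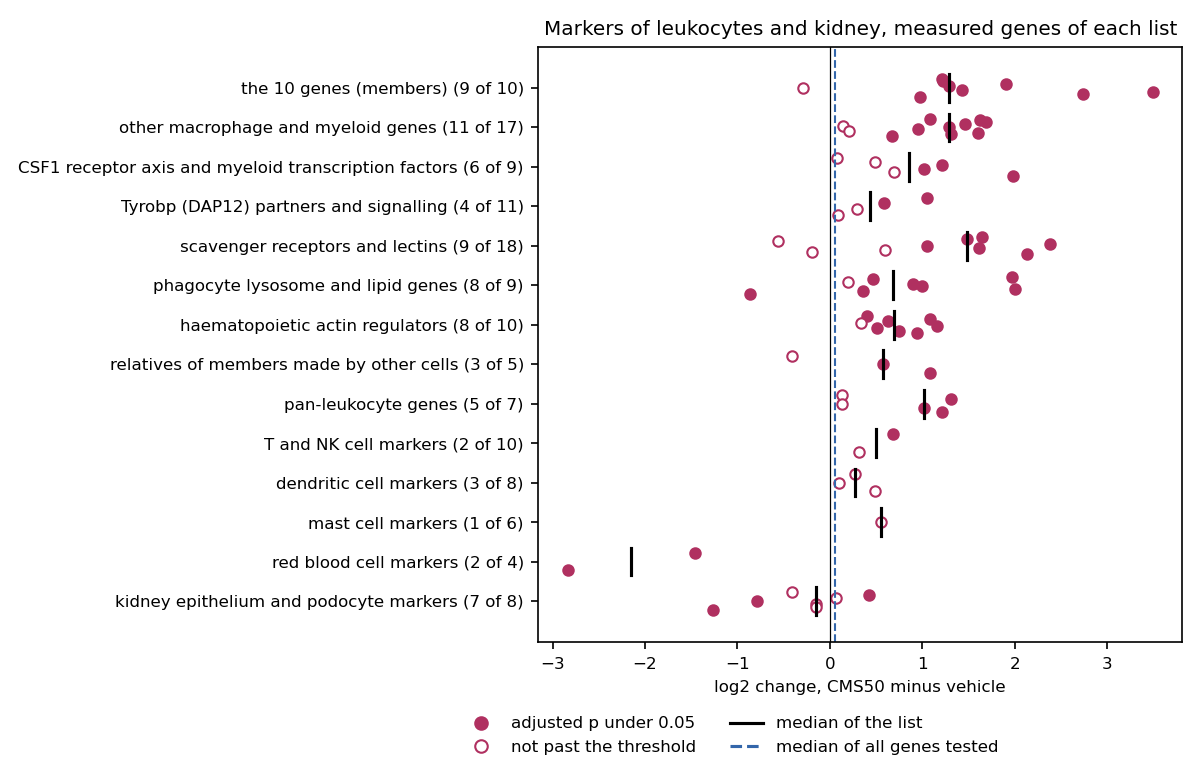
Log2 change of CMS50 minus vehicle (x axis) for each measured gene of 14 lists (y axis, measured of listed), with the list's median as a bar and the median of all genes as a dashed line. Macrophage and pan-leukocyte genes lie mostly right of that line and red blood cell genes left of it.

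Most markers of neutrophils, lymphocytes and mast cells were too dim to be tested. All 7 neutrophil markers on the array, S100a8 and S100a9 among them, were below the minimum, and the log2 of their summed signal was 6.38 to 6.64 in vehicle, 6.51 to 6.87 in CMS25 and 6.16 to 6.27 in CMS50. The 3 B and plasma cell markers on the array were below it too, with sums of 6.05 to 6.18 in vehicle, 6.06 to 6.16 in CMS25 and 5.92 to 6.10 in CMS50. Of 10 T and NK cell markers 2 were measured, Cd3e and Lck, named after their values were seen. Cd3e, which passed the minimum only through CMS50, changed by 0.68 in CMS50 against vehicle (adjusted p = 0.0157) and by 0.53 against CMS25 (adjusted p = 0.0407). Lck was not called against vehicle (0.32, adjusted p = 0.0971) and was higher in CMS50 than in CMS25 (0.45, adjusted p = 0.0308). The log2 of the summed signal of the list was 8.03 to 8.21 in vehicle, 8.11 to 8.20 in CMS25 and 8.33 to 8.49 in CMS50. Each sum in this paragraph adds different probe sets, so the brightest weighs most, Lck here and Hbb among red blood cell genes. A sum is therefore no measure of cell number. Of 8 dendritic cell markers 3 were measured, and 0 were called in CMS50 against vehicle. Against CMS25, 2 of them were higher in CMS50, Flt3 by 0.40 (adjusted p = 0.0291) and Itgax by 0.72 (adjusted p = 0.0423), both named after their values were seen. The 1 measured of 6 mast cell markers was not called in either comparison. The dendritic sum was 7.72 to 7.95 in vehicle, 7.69 to 7.89 in CMS25 and 8.02 to 8.31 in CMS50. The mast cell sum was 6.35 to 6.54 in vehicle, 6.42 to 6.64 in CMS25 and 6.46 to 7.04 in CMS50. Both measured red blood cell genes fell in CMS50 against vehicle, Hbb by 2.84 (SE 0.59, adjusted p = 0.00872) and Alas2 by 1.46 (SE 0.36, adjusted p = 0.0157), both named after their values were seen, and their sum was 12.74 to 13.04 in vehicle, 12.81 to 13.83 in CMS25 and 8.52 to 11.10 in CMS50. The part of these shifts in the values of the 10 genes was not tested.

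The tissue label was borne out by all 7 tubule markers on the array, which were measured, with a mean log2 signal of 12.14 to 12.33 in vehicle, 12.07 to 12.36 in CMS25 and 11.52 to 12.21 in CMS50. Cdh16 rose by 0.43 in CMS50 against vehicle (adjusted p = 0.0110). Umod fell by 1.27 (adjusted p = 0.0400) and Slc12a1 by 0.79 (adjusted p = 0.0456), with overlapping arrays for Slc12a1. Aqp2 (-0.41), Slc12a3 (-0.15), Slc34a1 (-0.15) and Lrp2 (0.071) were not called, and the median of the 7 was -0.15. All 7 were named after their values were seen. A reading of RNA quality also moved with dose: the log2 difference of the 3′ and 5′ control probe sets of beta-actin was 2.80 to 3.08 in vehicle, 3.05 to 3.28 in CMS25 and 3.48 to 3.63 in CMS50. For GAPDH it was 0.51 to 0.56 in vehicle, 0.50 to 0.91 in CMS25 and 0.77 to 0.89 in CMS50. The part of these readings in the changes was not tested. Correlations between arrays over all tested genes ran from 0.916 to 0.989. CMS50 replicate 3 had the lowest estimated array weight of the 9 (0.541).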

How the data were processed

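Kidney RNA of 9 rats was measured on Affymetrix Rat Genome arrays, 1 per rat. The authors deposited log2 values, made with RMA and Expression Console per the submitters' processing notes. Software versions are not given in the sources used here. The RMA method adjusts the background, equalises the distributions of the arrays and compresses changes of dim probe sets. The table held 31099 probe sets, and 20826 had 1 gene symbol in the supplied annotation.

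Each gene was read from its brightest probe set. Genes with a mean log2 value of at least 5 were fitted over all 3 groups with limma 3.58.1 in R 4.3.3 (lmFit, eBayes), and p-values were adjusted by Benjamini-Hochberg. A second fit tested every probe set, 13419 of them. The fit was tested on simulated data. Alternatives changed the scaling, minimum, probe set rule, variance model, array weights, groups fitted and replicate block, and left out each array. The rule for named genes took the 10 members, a panel of 24 genes and the genes most correlated with the members. Some genes of the marker lists were named outside it, after their values were seen. Members and lists were chosen with earlier results of these data known. Labels give no batch, and the number of arrays limits the precision.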

Additional observations from a re-analysis of the deposited data

How the results depend on the processing

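Under 17 alternatives the count of genes called was within 1.5 times the reported one, except when an array was left out. For CMS50 against vehicle it ran from 1687 to 3546 over these leave-outs (1711, 1687 and 1852 without CMS50 replicate 1, CMS50 replicate 2 and vehicle replicate 2), and for CMS50 against CMS25 from 1569 to 3518 (1737, 1569 and 2008 without CMS50 replicates 1 and 2 and CMS25 replicate 3). For CMS25 against vehicle it was 0 under all 17. The 8 genes called higher in CMS50 kept their call under each alternative in which they were tested, against vehicle and against CMS25. Mrc1 was not tested with a minimum of 6. The lost calls were 4 of Cd163 against vehicle, 7 of Cd163 against CMS25 and 2 of Csf1 against CMS25. Sign changes were limited to CMS25 against vehicle, where no gene was called. They were Tyrobp at 0.00075 with array weights, and when arrays were left out Cd68 (range -0.0015 to 0.31), Csf1r (-0.14 to 0.20, with -0.016 without vehicle replicate 1), Clec4a3 (-0.35 to 0.16), Aif1 (-0.31 to 0.020) and Tyrobp (-0.19 to 0.21). The cause was not tested. Cyclic loess scaling split the calls between the doses into 1744 higher and 1227 lower in CMS50, against 2153 and 975 as reported. Averaging the probe sets of a gene lowered the Aif1 change in CMS50 against vehicle to 0.60. With the replicate number as a block, 2865 genes were called for CMS50 against vehicle and 2857 for CMS50 against CMS25, and Cd163 lost its call against CMS25 (adjusted p = 0.0704). Over all tested genes, arrays of the same number shared no clear deviation (r from -0.18 to 0.26, over 0.1 in 3 of 9 pairs). Arrays of different number in different groups gave a similar range (r from -0.23 to 0.22, over 0.1 in 5 of 18 pairs). The mean of the 9 tested genes was nevertheless lowest on replicate 3 in each group. With the block, the SE in CMS50 against vehicle fell from 0.43 to 0.24 for Mrc1 and from 0.30 to 0.17 for Clec4a3. It also fell for Cd68, Csf1r, Gpnmb and Tyrobp, and rose slightly for Aif1, Coro1a and Csf1. Whether arrays of the same number share a batch was not tested.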
